A study of Mus musculus with 12 samples.

Results

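The 6 genes used or studied as oncofetal markers of liver tumors, *Afp*, *Gpc3*, *Cd24a*, *Igf2bp3*, *Tspan8* and *Golm1*, were followed in the total RNA of 12 mouse livers. They were chosen by symbol, and each symbol matched 1 of the 40551 Ensembl identifiers in the count files. All 6 were among the 15070 genes that passed the filter on low counts. The livers fell into 4 genotypes with 3 libraries each. WT livers served as controls, and which floxed or Cre alleles they carried is not given in the sources used here. *Mcl1*Δhep livers (Mcl1 KO in the labels) came from floxed *Mcl1* mice carrying Alb-Cre, a transgene active in hepatocytes, so nonparenchymal cells keep *Mcl1*, a gene for a prosurvival member of the Bcl-2 family. *Sting1*-/- livers (Sting1 KO) came from mice lacking the adaptor of cytosolic DNA sensing in the whole body, and *Mcl1*Δhep *Sting1*-/- livers (Mcl1 Sting1 DKO) combined both. The labels carry no age or sex, and the methods describe mice of both sexes. The paper's results give an age of 2 months for the transcriptomes in which *Mcl1*Δhep livers were first described. No age is stated with the transcriptomes of the *Sting1*-/- genotypes. The study's methods count the samples of its plots of these liver transcriptomes as biological replicates, and the labels do not say which mouse gave which library.

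Oncofetal genes are transcribed in the fetal liver, become nearly silent in adult hepatocytes, and can be transcribed again in regenerating or malignant liver. The 6 genes act at different places in the cell. *Afp* encodes α-fetoprotein, the fetal counterpart of albumin in serum, and is repressed after birth by the zinc finger proteins ZHX2 and ZBTB20. *Igf2bp3* encodes an RNA-binding protein of the embryo that binds transcripts such as *Igf2*. *Gpc3* encodes a heparan sulfate proteoglycan anchored to the cell surface, *Cd24a* a small mucin-like surface protein also found on B cells, red cell precursors and bile duct cells, and *Tspan8* a tetraspanin of the plasma membrane. *Golm1* encodes the Golgi membrane protein known as GP73, a serum marker of liver disease.

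Library totals ran from 28826367 to 45266387 counts. *Mcl1* was 90.2, 102 and 104 CPM (counts per 1000000 counts of the library, scaled by TMM factors) in WT livers and 27.9, 34.0 and 25.0 CPM in *Mcl1*Δhep livers. It ranged from 77.0 to 90.1 CPM in the livers labelled *Sting1*-/- and from 18.1 to 26.0 CPM in those labelled *Mcl1*Δhep *Sting1*-/-. *Sting1* followed its labels in part. It was 2.53, 2.43 and 2.11 CPM in WT livers and 1.16, 1.72 and 2.70 CPM in livers labelled *Sting1*-/-, and these groups overlapped (log2 fold change −0.34, adjusted p = 0.998). It was 4.59, 5.997 and 3.67 CPM in *Mcl1*Δhep livers and 1.90, 2.53 and 2.33 CPM in those labelled *Mcl1*Δhep *Sting1*-/-, lower without overlap (−1.07, unadjusted p = 0.00328, adjusted p = 0.134). Whether the deleted part of *Sting1* lies within the counted exons is not given in the sources used here, so both *Sting1*-/- genotypes are named by their labels. The paper verified the knockout of its *Sting1*-/- mice by Western blot. It also reports that their spleen cells did not phosphorylate IRF3 after treatment with a STING agonist. That evidence concerns protein in the mouse line and was not taken from these libraries. *Mcl1*Δhep replicate 3 stood apart, with 0.848% of its counts on 6 pancreatic acinar genes and 0.122% on 5 skeletal muscle genes, against at most 0.000152% and 0.00059% in any other library. *Mcl1*Δhep replicates 2 and 3 had 2.44% and 1.47% of counts on small structured RNAs, against 0.219% to 0.961% in the other 10 libraries. Y-linked genes were expressed in WT replicates 2 and 3 (147 and 142 counts per 1000000, without TMM factors) and in 1 *Mcl1*Δhep *Sting1*-/- library. They had at most 0.201 in *Mcl1*Δhep libraries and 0.0497 in those labelled *Sting1*-/-. Sex and genotype are thus in part confounded in the comparisons with WT livers. Fits with Y-linked expression as a covariate are given at the end.

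The sequences in front of the 4 markers that rose in *Mcl1*Δhep livers are shown so that the letters around their start sites can be compared. They are RefSeq windows on GRCm38.p6, from 250 bases before to 50 bases after the annotated start, 5′ to 3′ on the gene's strand. Capitals mark matches, on either strand, to 7 motifs searched. The motif of the core promoter was TATAAA, that of C/EBP was TTGCNNAA and that of FOXA was TGTTTNC. For AP-1 the letters were TGANTCA, for TEAD they were GGAATG, for E2F they were TTTNNCGC and for the GC box they were GGGCGG. The windows are chr5:90490464-90490763 (+ strand) for *Afp*, chr6:49214905-49215204 (− strand) for *Igf2bp3*, chr10:115817034-115817333 (+ strand) for *Tspan8* and chr13:59675735-59676034 (− strand) for *Golm1*.
Afp: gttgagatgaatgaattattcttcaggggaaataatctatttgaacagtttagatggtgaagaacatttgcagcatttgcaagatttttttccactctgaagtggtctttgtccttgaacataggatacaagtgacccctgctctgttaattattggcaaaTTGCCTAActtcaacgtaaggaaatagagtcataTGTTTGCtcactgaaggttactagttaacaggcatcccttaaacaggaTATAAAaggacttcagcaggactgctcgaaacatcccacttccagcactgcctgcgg
Igf2bp3: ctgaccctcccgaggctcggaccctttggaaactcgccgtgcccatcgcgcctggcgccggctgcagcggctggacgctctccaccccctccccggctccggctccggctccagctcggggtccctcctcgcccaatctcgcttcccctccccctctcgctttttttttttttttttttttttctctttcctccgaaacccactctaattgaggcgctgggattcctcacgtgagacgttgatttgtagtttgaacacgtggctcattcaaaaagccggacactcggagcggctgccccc
Tspan8: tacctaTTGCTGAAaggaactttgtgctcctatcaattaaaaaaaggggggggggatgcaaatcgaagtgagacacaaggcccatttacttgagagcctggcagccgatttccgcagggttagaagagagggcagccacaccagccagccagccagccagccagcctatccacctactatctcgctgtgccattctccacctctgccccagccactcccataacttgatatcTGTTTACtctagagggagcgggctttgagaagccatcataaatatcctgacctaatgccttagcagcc
Golm1: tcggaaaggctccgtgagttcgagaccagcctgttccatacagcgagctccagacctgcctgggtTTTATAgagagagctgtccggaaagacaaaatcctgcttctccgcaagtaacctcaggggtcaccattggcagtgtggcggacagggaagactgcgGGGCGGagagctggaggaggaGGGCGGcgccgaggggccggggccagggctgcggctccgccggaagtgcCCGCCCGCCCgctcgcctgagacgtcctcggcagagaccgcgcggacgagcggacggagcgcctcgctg

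The *Afp* window held a match each to the core promoter, C/EBP and FOXA motifs, which 13.62%, 10.8% and 20.49% of the 32851 RefSeq windows of this length also held. *Tspan8* shared the C/EBP and FOXA letters with *Afp* and had no other match. *Golm1* had 4 matches to the GC box, held by 35.66% of all windows, 2 of them overlapping, and 1 to the core promoter motif on the reverse strand 180 bases before the start. *Igf2bp3* had no match to any motif. The AP-1, TEAD and E2F letters, held by 7.81%, 14.66% and 5.17% of all windows, were in none of the 4. Base composition differed as well. GC content was 40.0% for *Afp* and 51.7% for *Tspan8*, below the median of 52.7% over all windows, and 60.3% for *Igf2bp3* and 67.0% for *Golm1*. *Igf2bp3* and *Golm1* held 25 and 30 CpG dinucleotides, *Afp* and *Tspan8* 3 and 5. A match describes letters and says nothing of binding. *Gpc3*, which did not rise, held 4 GC boxes and 30 CpG dinucleotides at a GC content of 70.7%.

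Livers lacking *Mcl1* in hepatocytes served the study as a model of continuous hepatocyte death followed by tumors, and 4 of the 6 markers rose in them. *Igf2bp3* rose 10.99-fold, *Tspan8* 3.68-fold, *Golm1* 3.34-fold and *Afp* 2.67-fold relative to WT livers. *Cd24a* and *Gpc3* did not pass the test. Of all genes tested, 3050 passed (20.2%), 1629 of them higher (10.8%). The markers were chosen with earlier results of these data known, so the 4 of 6 cannot be weighed against that share. With the small RNA share as a covariate 452 genes passed, 3 of the markers among them. In the same 4 genes the lowest *Mcl1*Δhep liver lay above the highest WT liver, a separation seen for 16.2% of all genes. The median log2 fold change was 1.58 over the 6 markers and 0.00 over all genes tested. In this bulk tissue, more cells with a transcript and more transcript per cell cannot be told apart.

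**Figure D1:**
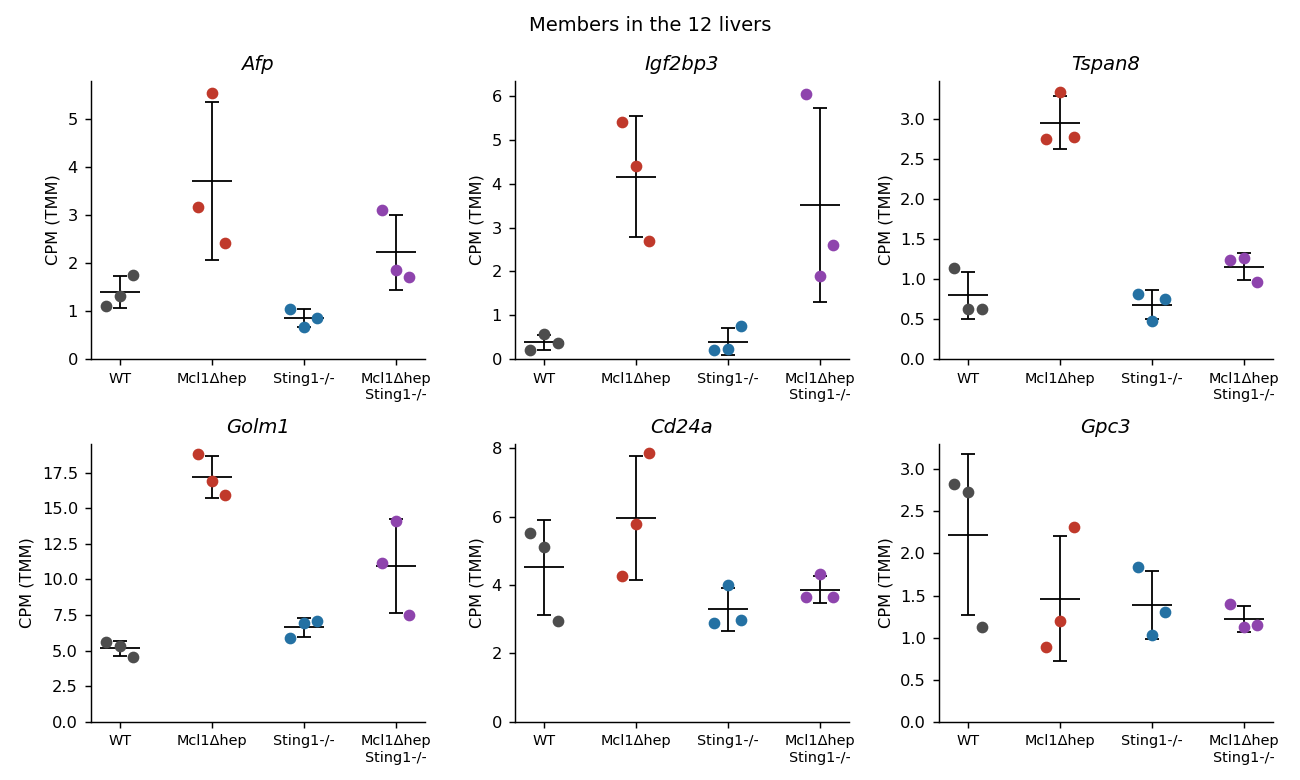
CPM (scaled by TMM factors) of the 6 markers in each of the 12 livers. Points are libraries, in the order of replicates 1 to 3, and black lines give the mean and SD of 3 libraries by labelled genotype. *Afp*, *Igf2bp3*, *Tspan8* and *Golm1* lie higher in all 3 *Mcl1*Δhep livers than in any WT liver, while *Cd24a* and *Gpc3* overlap.

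*Afp* (ENSMUSG00000054932) lies on chromosome 5 from 90638584 to 90656766 on the + strand of GRCm39. Its level was 1.11, 1.31 and 1.75 CPM in WT livers and 3.17, 5.54 and 2.40 CPM in *Mcl1*Δhep livers, from 42 to 53 and from 76 to 181 counts per library. All 3 *Mcl1*Δhep livers were above all WT livers, and replicate 2 was the highest of the 12. The log2 fold change was 1.42 ± 0.36 (SE; adjusted p = 0.0190, edgeR quasi-likelihood test). This call was the least stable of the 4: it was kept in 14 of 20 alternative fits. Leaving out *Mcl1*Δhep replicate 2 ended it (1.01, adjusted p = 0.0886), as did leaving out WT replicate 1 (adjusted p = 0.0538), WT replicate 2 (0.0706) or both libraries with over 1% small RNA (1.19, adjusted p = 0.112). The other losses came when the small RNA share entered the fit (0.96, adjusted p = 0.249) and when the 6 libraries were fitted alone (1.44, adjusted p = 0.0527). *Gm43449*, which overlaps *Afp* on the other strand by 9828 bases, had at most 0.632 CPM. Livers labelled *Sting1*-/- had the lowest levels, 1.05, 0.663 and 0.844 CPM. Their difference from WT livers did not pass the test (log2 fold change −0.70, adjusted p = 0.983). Those labelled *Mcl1*Δhep *Sting1*-/- had 3.11, 1.85 and 1.70 CPM and overlapped with both *Mcl1*Δhep and WT livers. *Afp* stayed a minor transcript even where it was highest. *Alb*, its neighbour on chromosome 5 and the main serum protein gene of adult hepatocytes, had 75627 to 108006 CPM in *Mcl1*Δhep livers and 59841 to 117093 CPM in WT livers, with a log2 fold change of 0.05 (adjusted p = 0.902).

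*Igf2bp3* (ENSMUSG00000029814) lies on chromosome 6 from 49062144 to 49192447 on the − strand. It was close to silent where *Mcl1* was intact, with 0.211, 0.564 and 0.363 CPM in WT livers and 0.204, 0.239 and 0.748 CPM in livers labelled *Sting1*-/-, from 7 to 31 counts per library. In *Mcl1*Δhep livers it was 5.40, 4.41 and 2.69 CPM, and in those labelled *Mcl1*Δhep *Sting1*-/- 6.05, 1.90 and 2.60 CPM. The 6 livers with *Mcl1* deleted were all above the 6 with *Mcl1* intact, and the 2 deleted groups overlapped. The log2 fold change in *Mcl1*Δhep livers was 3.46 ± 0.60 (SE; adjusted p = 0.00400), and the call was kept in all 20 alternative fits, at 3.15 to 4.40. *Igf2bp3* overlaps *Malsu1* on the other strand by 15045 bases and shares 16.97% of its 75-base transcript stretches with *Malsu1* and *Gm67966*, both on that strand, and the use of strand in counting is not given in the sources used here. *Malsu1* itself had a log2 fold change of 0.29 (adjusted p = 0.347).

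All 8 markers of dividing cells also rose in *Mcl1*Δhep livers, with a median log2 fold change of 3.37, led by *Ccnb1*, a mitotic cyclin gene, at 4.33 ± 0.68 (SE). Their summed level was 12.3, 11.4 and 11.4 CPM in WT livers and 162, 102 and 51.7 CPM in *Mcl1*Δhep livers. It was 22.9, 15.8 and 14.8 CPM in livers labelled *Sting1*-/- and 182, 103 and 50.05 CPM in those labelled *Mcl1*Δhep *Sting1*-/-. In *Mcl1*Δhep livers the replicates had the same order by this sum and by *Igf2bp3*. In the other genotypes the levels did not always follow each other. Replicate 1 had the highest sum in each genotype, and it had the highest *Igf2bp3* of both groups with *Mcl1* deleted but the lowest of both groups with *Mcl1* intact. The intact groups had only 7 to 31 *Igf2bp3* counts per library, and their sums in WT livers lay close together. In livers labelled *Mcl1*Δhep *Sting1*-/-, replicate 2 had a higher sum than replicate 3 and less *Igf2bp3*. The part of cell division in the level of *Igf2bp3* was not tested.

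**Figure D2:**
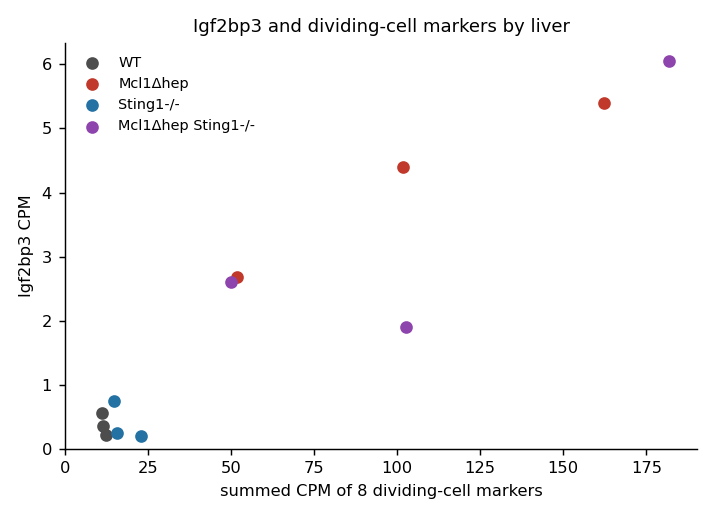
*Igf2bp3* CPM against the summed CPM of 8 dividing-cell markers, 1 point per liver, colored by labelled genotype. The 6 livers with *Mcl1* deleted lie at or above 1.90 CPM and 50.05 summed CPM, and the 6 with *Mcl1* intact at or below 0.748 CPM and 22.9 summed CPM.

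*Tspan8* (ENSMUSG00000034127) lies on chromosome 10 from 115652737 to 115685798 on the + strand. WT livers had 1.13, 0.623 and 0.627 CPM and *Mcl1*Δhep livers 2.75, 3.33 and 2.78 CPM. The spread within *Mcl1*Δhep livers, 2.96 ± 0.328 CPM (SD, n = 3), was small beside the distance to WT. The log2 fold change was 1.88 ± 0.30 (SE; adjusted p = 0.00285), kept in all 20 alternative fits at 1.69 to 2.23. Livers labelled *Mcl1*Δhep *Sting1*-/- had 1.24, 1.27 and 0.958 CPM, below every *Mcl1*Δhep liver, and overlapped with WT. Those labelled *Sting1*-/- had 0.815, 0.478 and 0.748 CPM. A share of 10.08% of its 75-base transcript stretches is also found in *4930422I22Rik*.

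*Golm1* (ENSMUSG00000021556) lies on chromosome 13 from 59782440 to 59828564 on the − strand. It had the most counts of the 6, 138 to 910 per library, and the smallest error. WT livers had 5.59, 5.31 and 4.56 CPM and *Mcl1*Δhep livers 18.8, 16.9 and 15.9 CPM. The log2 fold change was 1.74 ± 0.21 (SE; adjusted p = 0.00111), kept in all 20 alternative fits at 1.66 to 1.87. The 4 genotypes followed an order without overlap: WT, then livers labelled *Sting1*-/- at 5.88, 6.93 and 7.09 CPM, then livers labelled *Mcl1*Δhep *Sting1*-/- at 11.2, 14.1 and 7.50 CPM, then *Mcl1*Δhep. The lowest 2 groups were separated by 5.59 against 5.88 CPM, and their difference did not pass the test (log2 fold change 0.36, adjusted p = 0.998). How many of all genes separate between these 2 groups is not given here. Livers labelled *Mcl1*Δhep *Sting1*-/- did not pass either, with adjusted p = 0.150 against livers labelled *Sting1*-/- and 0.142 against *Mcl1*Δhep livers. *Naa35*, which overlaps *Golm1* by 1758 bases on the other strand, had a log2 fold change of −0.36 (adjusted p = 0.0805), and 15.58% of the 75-base stretches of *Golm1* transcripts also occur in other genes.

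*Cd24a* (ENSMUSG00000047139), on chromosome 10 from 43454280 to 43460264 on the + strand, overlapped between WT and *Mcl1*Δhep livers. WT livers had 5.51, 5.10 and 2.94 CPM and *Mcl1*Δhep livers 4.26, 5.78 and 7.87 CPM, a log2 fold change of 0.40 with a 95% interval from −0.20 to 0.996 (adjusted p = 0.315). The highest value was that of *Mcl1*Δhep replicate 3, the library with pancreatic and muscle transcripts, and without it the log2 fold change was 0.15 (adjusted p = 0.755). Livers labelled *Sting1*-/- had 2.88 to 4.01 CPM and those labelled *Mcl1*Δhep *Sting1*-/- 3.64 to 4.31 CPM. Of the cells named above as carrying CD24, namely B cells, red cell precursors and bile duct cells, few markers passed. Other cells were not read here, and neutrophils, with 2 of 4 tested markers higher, are given below. None of 5 B cell markers passed the test, nor 5 of 6 erythroid markers tested, while *Klf1*, a red cell transcription factor, fell by 1.34 on the log2 scale. Of 8 bile duct markers tested, only the keratin gene *Krt23* passed, higher by 2.74 on the log2 scale. *Prom1* had a log2 fold change of 2.89 (adjusted p = 0.0681) and *Epcam* 0.42 (adjusted p = 0.444), and the median of the list was 0.18. Summed bile duct markers were 49.3 to 83.2 CPM in WT and 89.6 to 122 CPM in *Mcl1*Δhep livers.

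*Gpc3* (ENSMUSG00000055653), on chromosome X from 51361303 to 51703137 on the − strand, was the one marker with a lower mean in *Mcl1*Δhep livers. WT livers had 2.82, 2.73 and 1.12 CPM and *Mcl1*Δhep livers 0.890, 1.19 and 2.31 CPM. The groups overlapped, and the log2 fold change of −0.62 had a 95% interval from −1.52 to 0.28 (adjusted p = 0.294). *Mcl1*Δhep replicate 3 was again the highest of its group, and without it the log2 fold change was −1.11 (adjusted p = 0.0888). Livers labelled *Sting1*-/- had 1.03 to 1.83 CPM and those labelled *Mcl1*Δhep *Sting1*-/- 1.12 to 1.40 CPM, within the range of the other groups.

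Per transcript length the markers ranked differently than by counts. In TPM (counts per exon length, scaled to 1000000 per library), *Cd24a* had the highest mean in every genotype, 6.33 ± 2.13 TPM in WT and 7.80 ± 1.66 TPM in *Mcl1*Δhep livers (SD, n = 3). *Gpc3* was next in WT livers, at 2.69 ± 1.21 TPM, and last in *Mcl1*Δhep livers, at 1.63 ± 0.71 TPM, beside *Igf2bp3* at 1.70 ± 0.80 TPM, from which it did not differ beyond the spread. *Golm1* and *Tspan8* followed *Cd24a* in *Mcl1*Δhep livers at 5.60 ± 1.43 and 5.36 ± 0.66 TPM, also within their spread, and *Afp* had 3.65 ± 1.36 TPM.

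On the *Sting1*-/- background as labelled, the effect of *Mcl1* deletion was followed by comparing livers labelled *Mcl1*Δhep *Sting1*-/- with those labelled *Sting1*-/-. *Igf2bp3* was the only marker that passed, 8.60-fold higher, with a log2 fold change of 3.11 ± 0.58 (SE; adjusted p = 0.0380). Far fewer genes passed here, 121 of 15070 (0.803%), 102 of them higher (0.677%). *Afp* (1.37 ± 0.37, SE), *Tspan8* (0.76 ± 0.31) and *Golm1* (0.72 ± 0.20) had log2 fold changes above 0 with adjusted p = 0.126, 0.357 and 0.150. These 4 genes were higher in all 3 livers labelled *Mcl1*Δhep *Sting1*-/- than in any labelled *Sting1*-/-, as were 11.5% of all genes. *Cd24a* and *Gpc3* overlapped between the groups (0.24 and −0.18, adjusted p = 0.839 and 0.923). The call for *Igf2bp3* was kept in 7 of 20 alternative fits, with log2 fold changes of 2.47 to 3.96 throughout, and was lost without any 1 of 8 libraries, among them each of the 3 labelled *Sting1*-/-. DESeq2 called 3 markers, *Igf2bp3*, *Afp* (adjusted p = 0.0197) and *Golm1* (adjusted p = 0.0444).

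**Figure D3:**
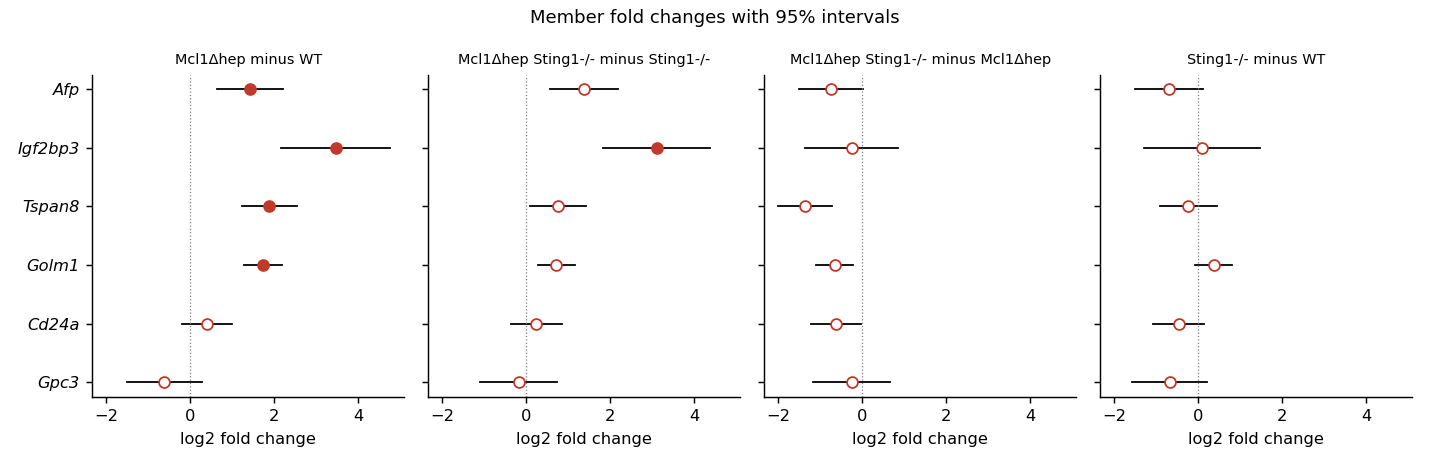
Log2 fold changes of the 6 markers in 4 comparisons of the labelled genotypes, with 95% intervals from the edgeR quasi-likelihood fit of 12 libraries. Filled points have an adjusted p under 0.05. Filled are 4 markers for *Mcl1*Δhep against WT, with *Igf2bp3* at 3.46, and *Igf2bp3* alone (3.11) on the *Sting1*-/- background.

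Whether the label *Sting1*-/- changed the markers in livers lacking *Mcl1* was asked by comparing livers labelled *Mcl1*Δhep *Sting1*-/- with *Mcl1*Δhep livers. No marker and no gene passed the edgeR test (0.0% called), while 3098 genes, and 3 of the 6 markers, had an unadjusted p under 0.05, and DESeq2 called 681 genes. Without *Mcl1*Δhep replicate 1, 3108 genes passed the edgeR test. The 3 markers, *Tspan8*, *Golm1* and *Cd24a*, were all lower in livers labelled *Mcl1*Δhep *Sting1*-/-, as were 10.2% of all genes at that limit. *Tspan8* had a log2 fold change of −1.35 ± 0.29 (SE; unadjusted p = 0.000602, adjusted p = 0.131), and DESeq2 called it (adjusted p = 0.00473), as did edgeR without *Mcl1*Δhep replicate 1 (adjusted p = 0.0149). *Golm1* had −0.66 ± 0.20 (SE; adjusted p = 0.142) and *Cd24a* −0.62 ± 0.28 (SE; adjusted p = 0.231). *Tspan8* and *Golm1* did not overlap between the groups, a separation in this direction seen for 9.28% of all genes. *Afp* (−0.74, adjusted p = 0.250), *Igf2bp3* (−0.25, adjusted p = 0.799) and *Gpc3* (−0.25, adjusted p = 0.762) overlapped.

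The difference between the effects of *Mcl1* deletion on the 2 backgrounds was tested as an interaction. No gene passed (0.0% called by edgeR, 2165 genes at an unadjusted p under 0.05, 170 called by DESeq2), and no marker passed with either tool. *Golm1* had the smallest unadjusted p of the markers, 0.00384 (adjusted p = 0.255), with an interaction of −1.02 and a 95% interval from −1.64 to −0.40 on the log2 scale. *Tspan8* had −1.12, from −2.05 to −0.19 (unadjusted p = 0.0223, adjusted p = 0.304). These were the markers with an unadjusted p under 0.05, which 7.11% of all genes had with a negative sign. For *Afp* and *Igf2bp3* the interaction was −0.04 and −0.35 with intervals from −1.19 to 1.10 and from −2.12 to 1.42. Differences within these limits, in either direction, were not resolved with 3 libraries a group. These comparisons share groups and are not independent of each other. No marker and no gene passed between livers labelled *Sting1*-/- and WT by edgeR (0.0% called, 821 genes at an unadjusted p under 0.05, 51 genes but no marker called by DESeq2), and marker log2 fold changes ran from −0.70 for *Afp* to 0.36 for *Golm1*.

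Genes related to each marker by family or function were read beside it, as counts over lists. Of all genes tested, 20.2% passed in either direction in *Mcl1*Δhep livers and 10.8% rose. The lists were chosen with earlier results of these data known, so their counts cannot be weighed against these shares. Among 9 fetal liver genes tested, 3 rose in *Mcl1*Δhep livers and none fell, with a median log2 fold change of 1.05. *H19*, an imprinted fetal RNA transcribed beside *Igf2*, had 0.0660 to 1.504 CPM in WT and 23.1 to 55.5 CPM in *Mcl1*Δhep livers, a log2 fold change of 5.91 ± 0.98 (SE; adjusted p = 0.00334). *Lpl*, for lipoprotein lipase, rose by 2.55 and *Mest*, another imprinted gene, by 1.05. In livers labelled *Mcl1*Δhep *Sting1*-/-, *H19* had 0.969 to 6.10 CPM, below every *Mcl1*Δhep liver, a separation seen for 9.28% of all genes. Against *Mcl1*Δhep livers *H19* had −3.82 (unadjusted p = 0.000799, adjusted p = 0.131) and *Igf2bp3* −0.25 (adjusted p = 0.799). These changes were not tested against each other. No other member of the *Igf2bp3* family passed the test. *Igf2bp1* had 1 count in a single library and was 0 in the other 11, and *Igf2bp2* had a log2 fold change of 0.64 (adjusted p = 0.207). *Lin28b*, an embryonic RNA-binding protein gene, had 0 counts in all 12 libraries.

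Of 9 other liver tumor markers tested, 4 rose and none fell, with a median of 1.02. *Ly6d*, a surface protein gene, rose by 6.48 ± 0.67 (SE), *Tnfrsf12a*, the TWEAK receptor gene, by 3.10, *Anxa2*, an annexin gene, by 2.53, and *Cd44*, for a hyaluronan receptor, by 1.02 on the log2 scale. The other 5 did not pass, among them *Glul*, for glutamine synthetase, at −0.82 (adjusted p = 0.149) and *Spp1*, for osteopontin, at −0.07 (adjusted p = 0.847). Of the 15 tetraspanins tested besides *Tspan8*, 7 rose and 2 fell (median 0.59). *Cd63*, a late endosome and exosome tetraspanin, rose by 2.88, *Tspan15* by 1.86, *Cd9* by 1.72 and *Cd53*, a leukocyte tetraspanin, by 1.38. *Tspan8*, at 1.88, lay within this range.

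Of 13 genes for regulators of *Afp*, 7 fell and none rose, with a median of −0.57. *Zbtb20* and *Zhx2*, both repressors of *Afp*, fell by 0.89 and 0.68 on the log2 scale (adjusted p = 0.0170 and 0.00783). So did *Foxa1* by 1.65, *Foxa2* by 1.22 and *Cebpa* by 1.04, genes for activators of hepatocyte transcription. Genes for repressors and for activators were thus both lower in *Mcl1*Δhep livers, where *Afp* was higher, and a link with *Afp* was not tested. None of these 13 passed on the *Sting1*-/- background as labelled, where *Zbtb20* had 0.27 (adjusted p = 0.732) and *Zhx2* −0.24 (adjusted p = 0.582). *Afp* had 1.37 on that background (adjusted p = 0.126). In the albumin family none of 3 genes passed. Among 3 glypicans tested besides *Gpc3*, *Gpc4*, its neighbor on chromosome X, fell by 0.61 (adjusted p = 0.0158). Of 11 genes for Golgi structure and enzymes, 4 fell and none rose: *Man2a1* by 0.72, *Gosr1* by 0.56, *B4galt1* by 0.51 and *Man1a* by 0.45. *Golm2*, the paralog of *Golm1*, had −0.83 (adjusted p = 0.0707). Of 2 genes for CD24 binding partners, *Selp*, for P-selectin, rose by 1.41. On the *Sting1*-/- background as labelled no gene of these 8 lists passed.

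**Figure D4:**
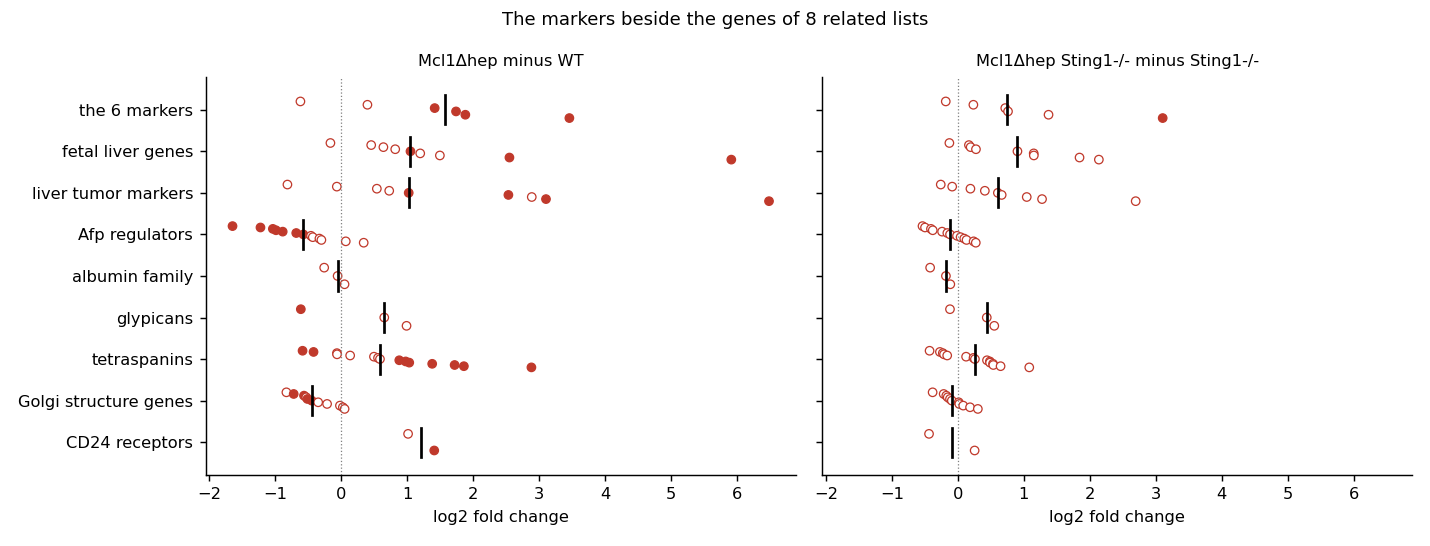
Log2 fold changes of the 6 markers and of every tested gene of 8 related lists upon *Mcl1* deletion, against WT (left) and on the *Sting1*-/- background as labelled (right). Each point is a gene, filled where the adjusted p is under 0.05, and black bars are medians; the markers' median is 1.58 on the left and 0.74 on the right.

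Marker lists of other cells gave the cellular background. Of 7 hepatocyte markers 1 fell in *Mcl1*Δhep livers (*Cyp2e1*, a pericentral cytochrome P450 gene, by 1.68) and none rose. Of 7 macrophage markers 3, of 6 stellate cell markers 3 and of 4 tested neutrophil markers 2 rose, and none of 5 endothelial or 3 tested intestinal markers passed. Summed neutrophil markers were 1.64 to 2.84 CPM in WT and 7.26 to 18.2 CPM in *Mcl1*Δhep livers, and stellate cell markers 258 to 438 and 567 to 684 CPM. The part of these cells in the marker levels was not tested. Of the pancreatic and muscle lists, the 1 gene tested in each was called through *Mcl1*Δhep replicate 3. Without that library the log2 fold changes of *Afp*, *Igf2bp3*, *Tspan8* and *Golm1* were 1.65, 3.69, 1.92 and 1.79, and all 4 calls were kept. All 50 list genes called in *Mcl1*Δhep livers kept their direction and call with DESeq2 size factors in place of TMM.

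Across the 12 libraries, the genes whose log2 CPM ran most like each marker were sought among 12525 tested genes of at least 1 CPM on average. These correlations follow the differences between the 4 genotypes and are descriptions. *Tspan8* was closest to *Ddr1* (Pearson's r = 0.98), a collagen receptor gene, *Vim* (0.96), for the mesenchymal filament protein vimentin, and *Rftn1* (0.96). *Golm1* was closest to *Maged2* (0.98), *Tmem65* (0.98) and the histone gene *H3c4* (0.97). *Igf2bp3* was closest to *Dbf4* (0.96), which activates the replication kinase CDC7, *Spon2* (0.95) and *Tacc3* (0.94), a mitotic spindle gene. *Afp* was closest to *Tnfaip3* (0.95), an inhibitor of NF-κB signaling, *Myo5a* (0.95) and *Gm49909* (0.95). *Gpc3* ran closest to *Mettl25b* (0.88), *Zfp870* (0.85) and the α-globin gene *Hba-a1* (0.82), and *Cd24a* to *Cyp3a11* (0.90), *Pkia* (0.90) and *S1pr5* (0.87). Among the markers, the 4 that rose ran together, from r = 0.74 for *Afp* and *Golm1* to 0.88 for *Tspan8* and *Golm1*. *Gpc3* ran between −0.37 and 0.46 with the others.

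**Figure D5:**
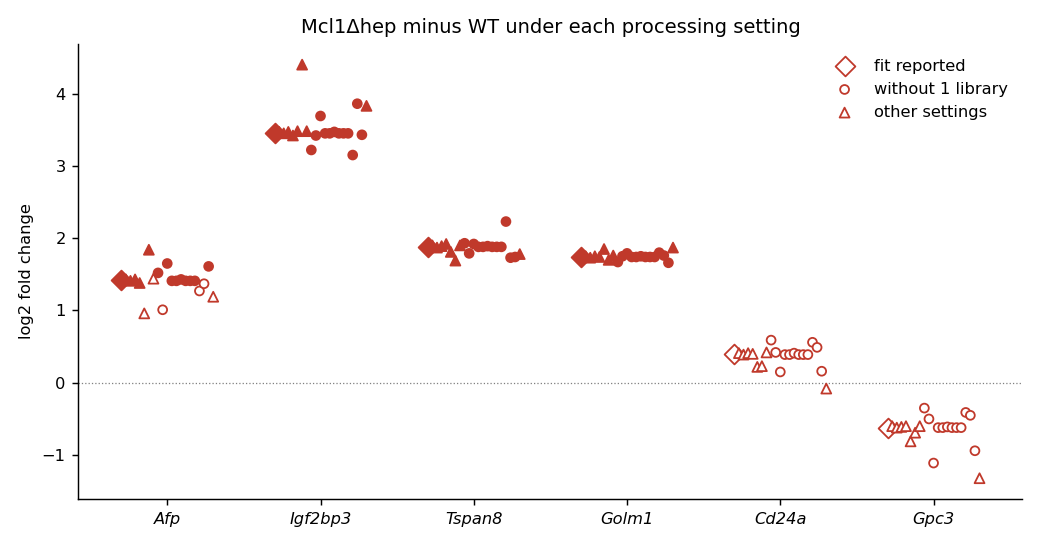
Log2 fold change of each marker in *Mcl1*Δhep against WT livers in the reported fit (diamond), without each of the 12 libraries (circles) and under the other settings (triangles), filled where the adjusted p is under 0.05. *Igf2bp3*, *Tspan8* and *Golm1* are filled throughout, *Afp* in 14 of 20 alternatives, and *Cd24a* and *Gpc3* in none.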

How the data were processed

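Gene counts of 12 livers were analyzed. Each deposited file lists raw counts by Ensembl gene, not normalized by the authors. The submitters' processing notes name STAR, featureCounts and GRCm39; versions and use of strand are not given in the sources used here. The labels and the methods name different RNA kits. Symbols, positions and exon lengths came from GENCODE vM39, which held 39533 of 40551 identifiers. Genotypes and replicate numbers were taken from the labels.

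Counts were fitted with edgeR 4.0.16 in R 4.3.3 (TMM, filterByExpr by genotype, glmQLFit and glmQLFTest) over all 12 libraries without covariates, with Benjamini-Hochberg adjustment over 15070 genes and a threshold of 0.05. Intervals are 95% intervals of that fit. Log2 CPM used a prior count of 2. Both fits were tested on simulated data. The depth was 28826367 to 45266387 counts per library. No pair of libraries of a genotype agreed within sampling noise (lowest chi-square per degree of freedom 43.2). Levels between genes are TPM, from counts per summed exon length. Alternatives were DESeq2 1.42.0, its size factors, no filter, a replicate block, covariates for the small RNA share and Y-linked expression, the 6 libraries compared alone, leaving out each library, and, chosen after seeing the data, leaving out libraries with over 1% small RNA.

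The markers and lists were chosen with earlier results of these data known. Named beyond the 6 markers are the 3 genes running most like each, up to 4 called genes with the largest change per list, and *Zhx2*, *Zbtb20*, *Alb*, *Igf2bp1*, *Igf2bp2*, *Gpc4*, *Golm2* and *H19*. A gene that this rule names is not reported here. Other genes were named after their values were seen, as cell markers, list members or overlapping genes. Promoters came from RefSeq (GRCm38.p6), which matched 5 of the 6 markers, *Cd24a* excepted. Figures were drawn with matplotlib 3.10.9.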

Additional observations from a re-analysis of the deposited data

How the results depend on the processing

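Of 234 marker values under alternatives other than leaving out 1 library, 216 kept their direction and side of the threshold, 8 lost a call, 3 gained one and 7 turned direction. Of 360 values with 1 library left out these numbers were 331, 11, 2 and 16. Genes called in *Mcl1*Δhep against WT livers, 3050 as reported, numbered 452 with the small RNA share as a covariate, 1504 with Y-linked expression, 1178 with the 6 libraries alone and 824 without the libraries over 1% small RNA, and 1233 (without WT replicate 2) to 5232 (without *Mcl1*Δhep replicate 1) with 1 library left out. Numbers without *Mcl1*Δhep replicate 2 (1238) and WT replicate 3 (1596) were also far lower. On the *Sting1*-/- background as labelled, 121 genes became 461 with DESeq2, 46 with Y-linked expression, 17 with the 6 libraries alone and 1 (without *Sting1*-/- replicate 2) to 249 (without *Mcl1*Δhep *Sting1*-/- replicate 3) with 1 library left out. The 1 marker called there became 3 with DESeq2, 0 with the replicate block, either covariate, the 6 libraries alone or without the libraries over 1% small RNA, and 0 to 2 with 1 library left out. Against *Mcl1*Δhep livers, 0 genes became 681 and 0 markers became 1 with DESeq2, 2 genes passed with Y-linked expression and 2 without the libraries over 1%, and leaving out 1 library gave 0 to 3108 genes and 0 to 1 marker. For the label *Sting1*-/- against WT, 0 genes became 51 with DESeq2, 2 with the 6 libraries alone, 1 without the libraries over 1% and 0 to 22 with 1 library left out. For the interaction, 0 became 170 with DESeq2 and 0 to 1574 with 1 library left out, the highest without *Mcl1*Δhep replicate 1. Log2 values turned direction, none of them called, without the libraries over 1% small RNA for *Cd24a* against WT (−0.08), *Gpc3* against *Mcl1*Δhep (0.45) and the interactions of *Afp* (0.18) and *Cd24a* (0.32), with the small RNA share for those of *Afp* (0.50) and *Cd24a* (0.05), and with Y-linked expression for that of *Cd24a* (0.09). With 1 library left out, ranges across 0 were −0.36 to 0.06 (*Gpc3*, *Sting1*-/- background), −0.51 to 0.24 (*Gpc3*) and −0.89 to 0.05 (*Igf2bp3*) against *Mcl1*Δhep, −0.76 to 0.51 (*Igf2bp3*) and −0.38 to 0.12 (*Tspan8*) for *Sting1*-/- against WT, and −0.35 to 0.36 (*Afp*), −0.35 to 0.09 (*Cd24a*) and −0.99 to 0.51 (*Igf2bp3*) for the interaction. Same-numbered libraries deviated from their group means with correlations of −0.541 to 0.251. With 3 libraries a group such values cannot exclude a pairing of samples, and the reported fit used none. With the replicate block, 29 of 30 marker values kept direction and call, and *Igf2bp3* on the *Sting1*-/- background became 3.03 (adjusted p = 0.0696). The cause of these changes was not tested. Low counts limit *Igf2bp3* where *Mcl1* was intact, at 7 to 31 counts per library.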
